A study of Mus musculus with 18 samples.

Results

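AP-1 is a family of transcription factors built from Fos and Jun proteins. The 7 genes described here are Fos, Fosb, Fosl1, Fosl2, Jun, Junb and Jund, taken as a list by gene symbol, with every probe set that the array's gene table assigns to one of them. They are 7 of the 12394 genes on the array and are measured by 9 of its 22690 probe sets. Of the 7 genes, 5 passed the filter on low values (log2 4 or higher on average) and were among the 7382 genes tested: Fos, Fosl1, Jun, Junb and Jund.

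Messenger RNA was measured in 18 cultures of mouse embryo fibroblasts (MEFs), each on its own Affymetrix array. The study compared 9 lines with normal chromosomes (Wt) with 4 lines carrying an extra copy of chromosome 13 (Ts13), 3 with an extra chromosome 16 (Ts16), 1 with an extra chromosome 1 (Ts1) and 1 with an extra chromosome 19 (Ts19). All groups were grown for 2 passages in medium with fetal calf serum, and labelled cRNA was made from 5 ug of total RNA. The labels give no age, strain, sex or drug treatment, and nothing says whether each line came from its own embryo, so a p-value here reflects how far these samples spread, which may be technical. Ts1 and Ts19 rest on 1 array each and were assumed in the tests to vary like the other groups. Levels are log2 expression values, so a difference of 1 is a doubling.

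A Jun protein can pair with itself or with a Fos protein through a leucine zipper, whereas Fos proteins need a Jun partner to bind DNA. The pairs bind the AP-1 site (TRE) and related CRE sites and control genes of growth, matrix turnover and stress. In fibroblasts Fos, Fosb and Junb are textbook immediate early genes, switched on within minutes of serum or growth factors by MAP kinases acting on factors such as SRF, Elk1 and Creb1. Fosl1 comes up later and is itself a target of AP-1, Jun can raise its own transcription through a TRE-like site, and Jund is usually present without a stimulus.

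RefSeq promoter windows (GRCm38.p6, from 250 bases before the annotated start to 50 after it) were given for 6 of the 7 genes, all but Fosl1. Those of Fos, Jun and Junb are shown up to the start because Fos and Junb vary widely between arrays and Jun is the partner they share. Capitals mark the CRE core TGACG, the TRE-like site TGACATCA and the TATA box TATAAA, read 5′ to 3′ on the gene's strand.
Fos, chr12:85473640-85473889, plus strand: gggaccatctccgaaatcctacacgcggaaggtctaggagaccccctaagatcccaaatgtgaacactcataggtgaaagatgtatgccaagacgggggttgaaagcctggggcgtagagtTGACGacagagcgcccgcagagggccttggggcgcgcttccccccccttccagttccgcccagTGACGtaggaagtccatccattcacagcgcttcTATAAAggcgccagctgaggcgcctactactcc
Jun, chr4:95052223-95052472, minus strand: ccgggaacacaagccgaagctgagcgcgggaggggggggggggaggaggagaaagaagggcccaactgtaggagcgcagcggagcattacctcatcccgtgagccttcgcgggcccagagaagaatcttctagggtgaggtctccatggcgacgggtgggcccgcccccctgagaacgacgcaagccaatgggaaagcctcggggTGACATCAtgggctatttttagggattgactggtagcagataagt
Junb, chr8:84978749-84978998, minus strand: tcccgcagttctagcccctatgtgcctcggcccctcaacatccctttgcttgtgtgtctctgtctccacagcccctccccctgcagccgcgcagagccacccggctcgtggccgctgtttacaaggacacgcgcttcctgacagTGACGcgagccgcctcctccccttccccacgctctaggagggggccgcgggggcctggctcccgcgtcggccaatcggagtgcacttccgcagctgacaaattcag
The Fos window held TGACG at 129 and at 66 bases before the start and TATAAA at 33 bases before it. Junb held TGACG at 106 bases before the start and a TATAAA that begins at the start itself, and Fosb held TGACG at 60 bases before it. The Jun window held TGACATCA at 45 bases before the start and no TGACG. Searched on both strands over all 32851 windows, TGACG was in 20.8%, TGACATCA in 3.62% and TATAAA in 13.6%. CCAAT (37.4% of windows) was found in Jun and Junb, and the GC box GGGCGG (35.7%) in Fos, Fosb, Fosl2 and Jun. The full CRE, TGACGTCA (1.79% of windows), which contains the TGACG core, the AP-1 site TGANTCA (7.81%) and the CArG box bound by SRF (1.63%) were not found in the 6 windows. Sequence beyond these windows was not searched, so this does not show that the genes lack such sites.

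The cultures had a fibroblast profile: the mean of 12 fibroblast markers, which include Col1a1, Vim and Thy1, was 12.97 to 14.11 in every array, and none of the 7 endothelial markers passed the filter. Of 8 smooth muscle markers 7 passed, with a mean of 8.47 to 9.96 in Wt, 8.45 to 9.25 in Ts13, 8.67 to 9.36 in Ts16, 8.73 in Ts19 and 10.12, above the Wt range, in Ts1. The mean of 7 neural markers, 3 of which passed, was 4.53 to 5.40 in Wt, 4.81 to 5.06 in Ts16 and 5.24 to 5.79 in Ts13. It was 5.47 in Ts1 and 4.89 in Ts19. For 7 epithelial markers, 1 of which passed (Krt18), the mean was 2.50 to 2.95 in Wt and 2.60 to 2.81 in Ts13. On that list Ts16 read 2.66 to 3.39, Ts1 3.05 and Ts19 3.23. The part of these markers in the results was not tested. The mean of 17 macrophage markers was 2.45 to 4.32 in the Wt arrays and 2.65 to 4.96 in Ts13; 3 of the 17 passed the filter, and Ctss and Lyz2 reached 9.27 and 9.07 in Ts13 replicate 4. No array was identical to another. On 3 arrays, Ts13 replicates 3 and 4 and Ts16 replicate 1, the Gapdh control probe sets read 5.57 to 6.94 higher at the 3′ end of the transcript than at the 5′ end, against -0.20 to 1.41 on the other 15 arrays. That difference is used as a sign of RNA quality, and the 3 arrays are called 3′-biased below. In the limma fit, 130 genes (1.76% of those tested; 81 higher and 49 lower, or 154 and 18 with arrays centred on their medians) were called for Ts13 against Wt at an adjusted p under 0.05, 3 (0.0406%) for Ts16, 3 (0.0406%) for Ts1 and none (0.0%) for Ts19, where 145 genes had an unadjusted p under 0.05. For all trisomies together 4 genes (0.0542%; 2 higher and 2 lower, or 6 and 1 with arrays centred) were called, and for Ts13 against Ts16 there were 179 (2.42%).

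No Fos or Jun gene was called in any of these 6 comparisons. The adjusted p-values of the 5 tested genes ran from 0.399 to 0.899 for Ts13, from 0.756 to 0.987 for Ts16, from 0.665 to 0.931 for all trisomies and from 0.235 to 0.937 for Ts13 against Ts16, and were 1 for Ts1 and Ts19. At an unadjusted p under 0.05 there was 1, Jund in Ts13 against Ts16. For Fos, Fosl1, Jun and Junb the 95% intervals in Ts13 and in Ts16 reach beyond a 2-fold change in at least 1 direction. As these are cultures measured in bulk, fewer cells expressing a gene and less RNA per cell cannot be told apart.

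**Figure D1:**
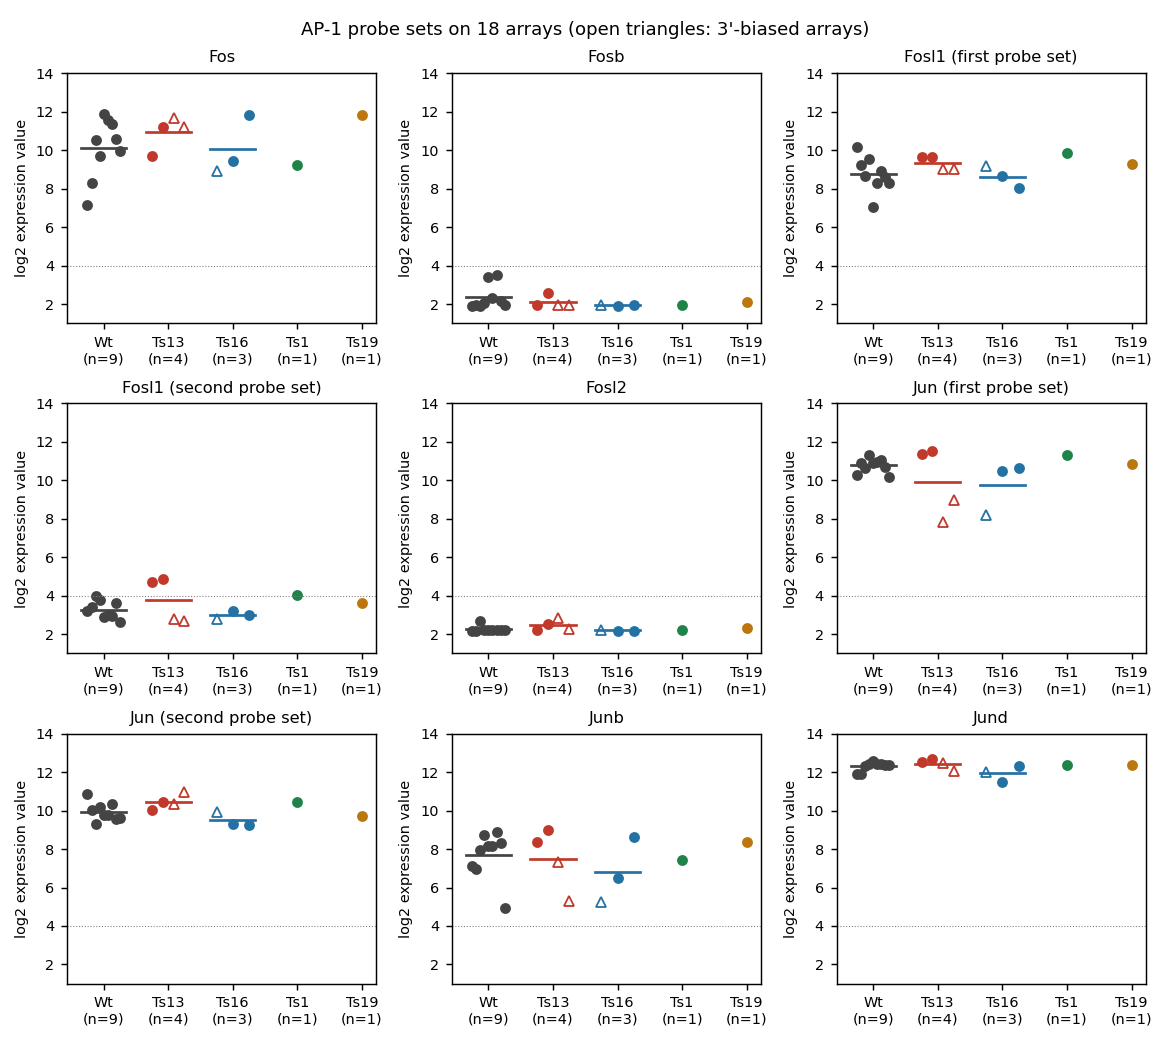
Log2 expression value of every Fos and Jun family probe set on each of the 18 arrays, by group; points are arrays, horizontal bars are group means where a group has more than 1 array, open triangles are the 3′-biased arrays and the dotted line is the filter at 4. Fos spans 7.15 to 11.89 among the Wt arrays, the first Jun probe set is at 8.98 or below only on the 3′-biased arrays, and Fosb and Fosl2 lie below 4 on all arrays.

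Fos, the founding member, is the nuclear partner that is made briefly after growth factor signals. Its probe set read 7.15, 10.55 and 11.89 (lowest, median and highest) in the 9 Wt arrays. The 4 Ts13 arrays read 9.68, 11.20, 11.66 and 11.23, and the 3 Ts16 arrays 8.90, 9.44 and 11.82. Ts1 read 9.25 and Ts19 11.82. All 9 trisomic arrays therefore lay inside the Wt range, with Ts19 above 8 of the 9 Wt arrays and Ts1 above 2 of them.

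The group means of Fos were 10.12 ± 1.57 (SD, n = 9) in Wt, 10.94 ± 0.87 (n = 4) in Ts13 and 10.05 ± 1.55 (n = 3) in Ts16. Neighbours in the order Ts19, Ts13, Wt, Ts16, Ts1 differed by less than the SD of the Wt arrays. The difference from Wt was 0.82 ± 0.78 (log2, SE; 95% interval -0.82 to 2.47) for Ts13 and -0.06 ± 0.86 (-1.89 to 1.76) for Ts16. The normal lines themselves differed widely: the Wt range of Fos was 26.8-fold, and 98.59% of the tested genes had a smaller Wt SD. Junb had a Wt SD of 1.23 (96.82% of genes lower) and Fosl1 of 0.89 (91.78%), whereas Jun at 0.36 and Jund at 0.24 were near or under the median of 0.38 over all tested genes.

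Fosl1, or Fra-1, is a Fos protein without the strong activation domain of Fos and is usually the main Fos protein of growing fibroblasts. Its first probe set read 7.04, 8.64 and 10.19 (lowest, median and highest) in Wt. Ts13 read 9.66, 9.63, 9.01 and 9.00, Ts16 read 9.16, 8.67 and 8.04, Ts1 9.86 and Ts19 9.31. The 4 Ts13 arrays were close together and each lay above at least 6 of the 9 Wt arrays, but no trisomic array left the Wt range. Mean levels were 8.75 ± 0.89 in Wt (SD, n = 9), 9.33 ± 0.37 in Ts13 (n = 4) and 8.62 ± 0.56 in Ts16 (n = 3), and neighbours in the order Ts1, Ts13, Ts19, Wt, Ts16 differed by less than the Wt SD. The difference from Wt was 0.57 ± 0.42 (95% interval -0.32 to 1.47, limma adjusted p = 0.431) for Ts13 and -0.13 ± 0.47 (-1.13 to 0.87, adjusted p = 0.948) for Ts16.

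The second Fosl1 probe set lay below the filter, at a mean of 3.40, and reached 4 on 3 arrays only. These were Ts13 replicates 1 and 2, at 4.72 and 4.89, and Ts1, at 4.04, and all 3 were above the highest Wt array, at 3.99. The 3′-biased Ts13 arrays read 2.79 and 2.69 on it.

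Fosl1 is the family member that lies on a chromosome present in 3 copies here: chr19:5447698-5455938 in GRCm38.p6. In Ts19 it was 0.56 above the mean of the 9 Wt arrays, which is 1.47-fold, and 7 of the 9 Wt arrays lay below the Ts19 array. The median over the 260 tested genes of chromosome 19 was 0.58 (quartiles 0.40 and 0.83), beside 0.585 for the log2 of 1.5; 252 of these genes were above 0 and 115 lay below Fosl1. Against the Wt array of the same title number Fosl1 was 0.69 higher (1.61-fold), with a median of 0.59 for the chromosome and 170 of the 260 genes below Fosl1. Fosl1 lay between the quartiles of its chromosome in both comparisons. With 1 array its limma difference was 0.56 ± 0.74 (95% interval -1.02 to 2.13, adjusted p = 1), so neither an unchanged level nor 1.5-fold was outside the interval. The same gene was 1.11 above the Wt mean in Ts1, where it has no extra copy. These values are those of the first probe set. The second Fosl1 probe set, below the filter, was 0.35 above the Wt mean in Ts19. Against the Wt array of the same title number it differed by -0.0058.

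Jun (c-Jun) is the main transactivating partner and a target of the JNK kinases. Its first probe set read 10.19, 10.88 and 11.34 (lowest, median and highest) in Wt. Ts13 replicates 1 and 2 read 11.39 and 11.52, above every Wt array, while the 3′-biased Ts13 replicates 3 and 4 read 7.83 and 8.98, below every Wt array. Ts16 showed the same split, with 8.19 on its 3′-biased array and 10.47 and 10.66 on the others, within the Wt range. Ts1 read 11.33 and Ts19 10.85. In the order Ts1, Ts19, Wt, Ts13, Ts16, the step from Ts19 to Wt was smaller than the Wt SD of 0.36, and the step from Ts13 (9.93 ± 1.82, SD, n = 4) to Ts16 (9.77 ± 1.38, n = 3) smaller than the spread of either.

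The mean differences of the first Jun probe set, -0.85 ± 0.58 in Ts13 (95% interval -2.08 to 0.39, limma adjusted p = 0.399) and -1.003 ± 0.65 in Ts16 (-2.37 to 0.36, adjusted p = 0.769), moved with the 3′-biased arrays. Without those 3 arrays the Ts13 difference turned to 0.68 ± 0.25 (adjusted p = 0.395) and the Ts16 difference shrank to -0.21. Over all groups the 3 arrays ranged from 7.83 to 8.98 and the other 15 from 10.19 to 11.52, without overlap. Their mean difference was -2.55, and 4.99% of the tested genes had a lower one.

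The second Jun probe set did not follow this split: it read 9.93 to 10.98 on the 3′-biased arrays and 9.27 to 10.89 on the others. On it Ts13 read 10.04, 10.45, 10.34 and 10.98, and Ts16 read 9.93, 9.31 and 9.27. Every Ts13 array was above every Ts16 array, as for 7.17% of the tested genes. Against the Wt range of 9.31 to 10.89 (median 9.79), only Ts13 replicate 4 was higher and only Ts16 replicate 3 was lower. Put in the fit in place of the first probe set, it gave 0.51 ± 0.26 for Ts13 (95% interval -0.05 to 1.07, adjusted p = 0.268), -0.44 ± 0.29 for Ts16 (-1.06 to 0.18, adjusted p = 0.771) and 0.95 ± 0.34 for Ts13 against Ts16 (0.24 to 1.66, adjusted p = 0.136). The probe sets of Jun therefore gave Ts13 differences of opposite sign, and neither passed the test.

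**Figure D2:**
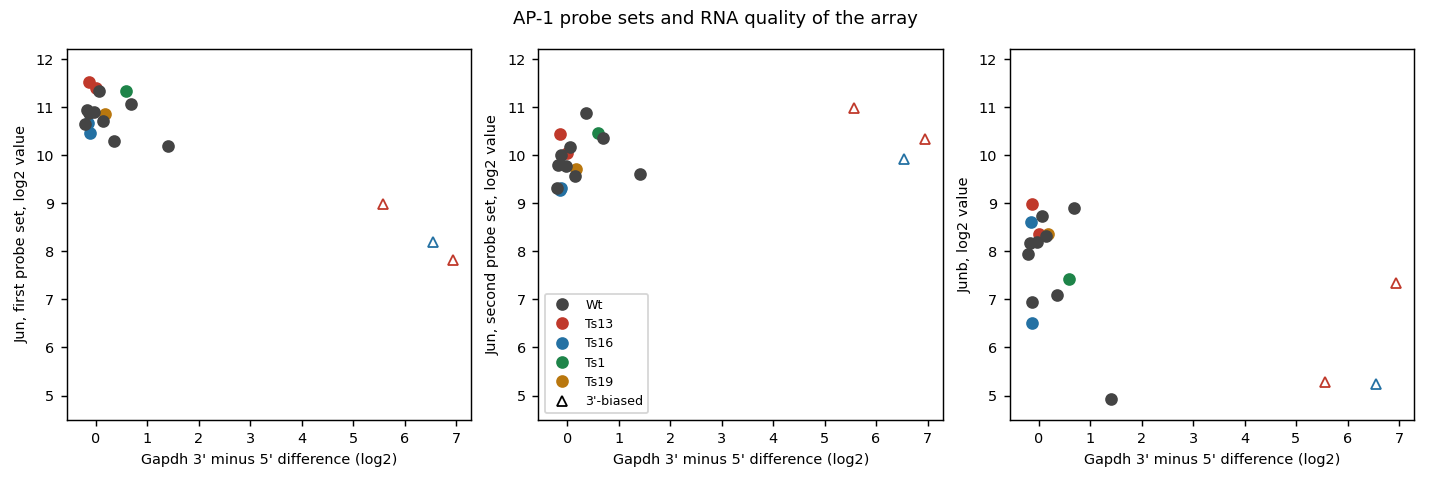
Log2 value of the first Jun probe set, the second Jun probe set and Junb (vertical axes) against the Gapdh 3′ minus 5′ difference of the array (horizontal axes, log2) for the 18 arrays, coloured by group. The first Jun probe set is 7.83 to 8.98 on the 3 arrays with a difference of 5.57 or more and at least 10.19 on the others; the second probe set overlaps between them.

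Junb is an immediate early Jun protein that is a weaker activator than Jun on single AP-1 sites and can oppose it. It read 4.92, 8.18 and 8.89 (lowest, median and highest) in Wt, where replicate 9 at 4.92 stood apart from the next lowest at 6.95. Ts13 read 8.37, 8.98, 7.35 and 5.27, and Ts16 read 5.25, 6.50 and 8.61. Ts1 read 7.43 and Ts19 8.37, and Ts13 replicate 2 was the only trisomic array outside the Wt range. Neighbours in the order of the means, Ts19, Wt, Ts13, Ts1, Ts16, differed by less than the Wt SD. The difference from Wt was -0.20 ± 0.77 (95% interval -1.83 to 1.43, limma adjusted p = 0.899) in Ts13 and -0.90 ± 0.86 (-2.71 to 0.91, adjusted p = 0.803) in Ts16. The 3′-biased arrays were among the low ones (5.25 to 7.35), and without them the differences were 0.99 in Ts13 and -0.13 in Ts16.

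Jund, the Jun protein that is present in resting cells, had the smallest Wt SD of the 5 tested genes. Its probe set read 11.89, 12.37 and 12.56 (lowest, median and highest) in Wt, 12.50, 12.68, 12.49 and 12.08 in Ts13, and 11.98, 11.51 and 12.33 in Ts16. Ts1 read 12.35 and Ts19 12.37, both close to the Wt median. Only Ts13 replicate 2 was above the Wt range and only Ts16 replicate 2 below it. In the order Ts13, Ts19, Ts1, Wt, Ts16, steps were smaller than the Wt SD of 0.24 except the last, from Wt to Ts16 (11.94 ± 0.41, SD, n = 3). The difference from Wt was 0.14 ± 0.17 in Ts13 (95% interval -0.22 to 0.50, limma adjusted p = 0.637) and -0.36 ± 0.19 in Ts16 (-0.75 to 0.04, adjusted p = 0.756), so a 2-fold change lay outside both intervals. Ts13 exceeded Ts16 by 0.50 ± 0.21 (0.04 to 0.95, limma adjusted p = 0.235).

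Fosb and Fosl2 (Fra-2), the remaining Fos genes, stayed below the filter on all 18 arrays and were not tested. Fosb read 1.91, 2.06 and 3.49 (lowest, median and highest) in Wt, 1.97, 2.57, 1.98 and 1.96 in Ts13, 1.94, 1.91 and 1.93 in Ts16, 1.95 in Ts1 and 2.13 in Ts19. Fosl2 read 2.19, 2.21 and 2.67 in Wt, 2.23, 2.55, 2.83 and 2.26 in Ts13, 2.22, 2.19 and 2.19 in Ts16, 2.21 in Ts1 and 2.34 in Ts19. Values this low do not show whether the genes were off or their probe sets read poorly.

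Each title holds a first number that 1 or more Wt arrays and 1 or more trisomic arrays share; the labels do not say what it stands for. The Wt arrays that share numbers with Ts13 and those that share numbers with Ts16 differed from each other in AP-1 levels. The first Jun probe set was 10.89 to 11.34 in the 4 Wt arrays of the Ts13 numbers and 10.30 to 10.88 in the 3 of the Ts16 numbers. Junb was 8.18 to 8.89 against 6.95 to 7.93, and Jund 12.41 to 12.56 against 11.89 to 12.32. Thus 3 of the 5 tested family genes were higher without overlap in the former, as were 12.9% of all tested genes. The second Jun probe set did not show this, with overlapping values and means of 10.02 and 10.07, and Fosl1 had the lower mean in the former (8.45 against 9.36, overlapping). Fos overlapped, at 9.68 to 11.89 against 7.15 to 10.55, with means of 11.13 ± 0.99 (SD, n = 4) and 8.67 ± 1.73 (n = 3).

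Set against Wt arrays of its own number, Fos looked different in Ts16 from the comparison with all Wt arrays. Differences were 0.06, 1.14 and 2.97 for the 3 Ts16 arrays, a mean of 1.39 ± 1.47 (SD), with 3 of 3 above 0, as for 12.1% of tested genes. In Ts13 they were 0.0006, -0.54, -0.09 and -0.14, a mean of -0.19 ± 0.24 (n = 4). Ts1 was 0.71 below its Wt array (-0.71) and Ts19 was 1.25 above. Number 89 holds 2 Ts16 and 2 Wt arrays and number 780 holds 2 Ts13 and 2 Wt arrays, so differences within a number share controls. Deviations from group means correlated with those of same-number Wt arrays at 0.09, 0.41 and -0.08 for Ts16 replicates 1 to 3. For Ts13 replicates 1 to 4 the values were 0.36, 0.08, 0.01 and -0.10. Only Ts16 replicate 2 and Ts13 replicate 1 correlated less with every other Wt array, so the first number was not shown to pair the rest.

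Within a first number, the titles also carry a second number, and the array with the nearest second number gives each trisomic array 1 Wt partner. This matching was chosen after the values were seen. By it Fos was 1.76, 1.14 and 1.27 above the Wt partner in Ts16 (mean 1.39 ± 0.32, SD, n = 3). In Ts13 it differed by 0.0006, -0.70, 0.07 and -0.14 from the partner (mean -0.19 ± 0.35, n = 4). The partners of Ts16 replicates 1 and 2 are Wt replicates 1 and 2, at 7.15 and 8.30 the lowest Wt arrays for Fos. Those Ts16 arrays each lay above 2 of the 9 Wt arrays, and Ts16 replicate 1 is 3′-biased. The SD of the Ts16 differences was 0.32, against 1.47 with the first-number matching, and all 3 were above 0, as for 17.7% of tested genes. For Ts16 the nearest second number also gives the same replicate number. A limma fit of the 3 pairs alone gave 1.39 ± 0.21 for Fos (adjusted p = 0.186) and called 0 genes (696 at an unadjusted p under 0.05), beside 3 in the comparison with all Wt arrays. With all 9 pairs as a block the Ts16 difference of Fos was 1.39 ± 0.22 (adjusted p = 0.177), the Ts13 difference -0.19 ± 0.19 (adjusted p = 0.528), and Ts13 minus Ts16 -1.58 ± 0.29 (adjusted p = 0.0921). None of these passed after adjustment. The signs of Ts13 (0.82 without the block), of Ts16 and of Ts13 against Ts16 were all opposite to those without the block.

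Set against the same Wt arrays, the mean difference of Fosl1 had the opposite sign to that of Fos in Ts13 and in Ts16. Against Wt arrays of the same first number it was 0.13, 1.95, 1.33 and 0.11 higher in Ts13 (mean 0.88 ± 0.91, SD, n = 4). In Ts16 the differences were -0.26, -0.59 and -1.37 (mean -0.74 ± 0.57, n = 3). The 1.95 and 1.33 belong to number 780, whose Wt replicate 5 read 7.04, the lowest Fosl1 value of the 18 arrays. Fosl1 was 1.58 higher in Ts1 and 0.69 higher in Ts19. All 4 Ts13 arrays were above for 14.7% of tested genes, and all 3 Ts16 arrays below for 10.9% (17.9% with the nearest second number). The combination of 4 of 4 above in Ts13 and 3 of 3 below in Ts16 was met by 0.975% of tested genes with this matching and by 1.82% with the nearest second number. These shares count that direction only, whereas the pattern was looked for in all 7 family genes and in either direction. They therefore do not measure how unusual it is to find 1 such gene. With the 9 pairs as a block, Ts13 minus Ts16 was 1.62 ± 0.61 (adjusted p = 0.365), so it did not pass. The second Fosl1 probe set was 0.61 ± 1.03 (2 of 4 above) in Ts13 and -0.55 ± 0.29 (3 of 3 below) in Ts16.

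The mean differences of the second Jun probe set had the same signs as those of Fosl1, at 0.43 ± 0.37 (SD, 3 of 4 above) in Ts13 and -0.56 ± 0.35 (3 of 3 below) in Ts16, but Ts13 replicate 1 lay below its Wt array (-0.12). On the first Jun probe set and Junb, the widest drops were those of the 3′-biased arrays: -3.09 and -2.09 in Ts13 and -2.29 in Ts16 for Jun, and -3.62 in Ts13 replicate 4 and -2.27 in Ts16 replicate 1 for Junb. Junb was 2.51 higher in Ts1 than in its own Wt array, which is the low Wt replicate 9. Jund differed by -0.02 ± 0.24 in Ts13 and -0.09 ± 0.30 in Ts16, and by -0.0053 in Ts1 and -0.0002 in Ts19.

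**Figure D3:**
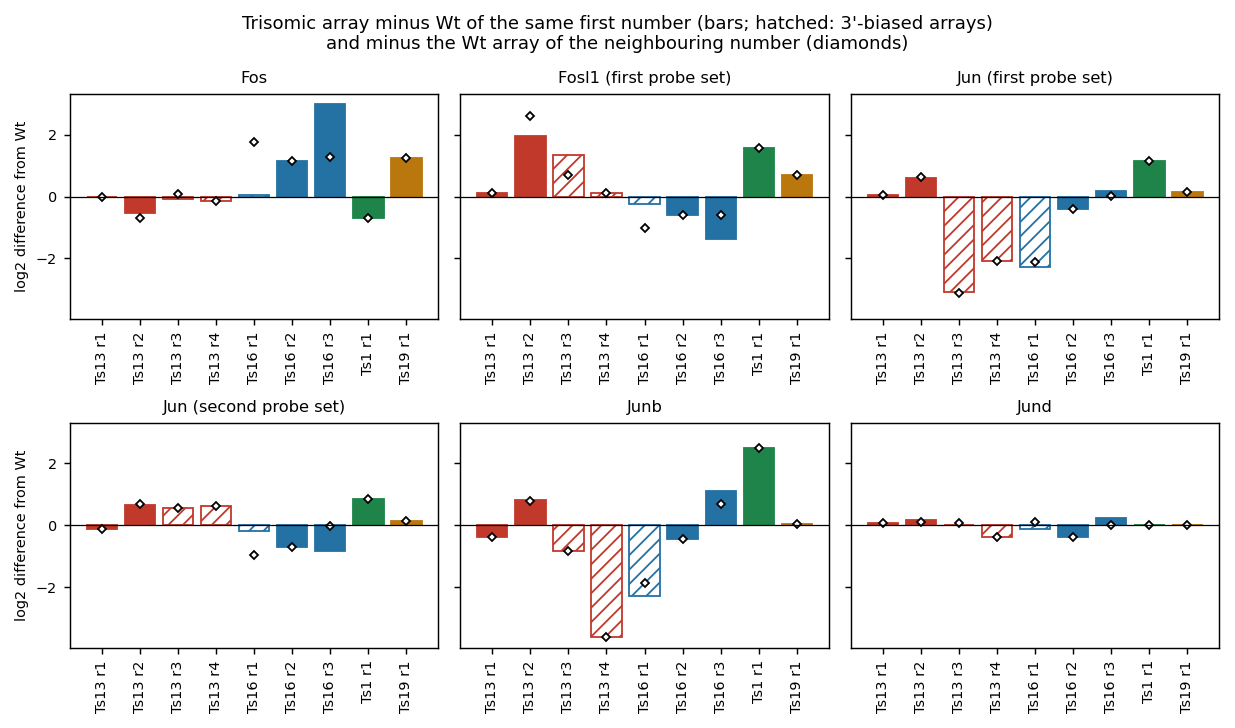
Log2 difference of each trisomic array from the mean of the Wt arrays with the same first title number (bars, hatched for 3′-biased arrays) and from the Wt array with the nearest second number (diamonds); r is the replicate number. The Fos diamonds of Ts16 lie between 1.14 and 1.76 and those of Ts13 between -0.70 and 0.07. Fosl1 is above 0 in all 4 Ts13 arrays and below 0 in all 3 Ts16 arrays. The Fosl1 bars of Ts13 r2 and r3 are set against number 780, which holds the array with the lowest Fosl1 value.

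Across the 18 arrays, the 5 tested genes and the second Jun probe set gave 15 pairs, of which 5 had a Benjamini-Hochberg adjusted permutation p under 0.05 for Pearson's r. Fos and Fosl1 ran in opposite directions (r = -0.59, permutation p = 0.0102, adjusted 0.0352; Spearman's rho = -0.55, permutation p = 0.0194, adjusted 0.0484). Without Wt replicates 1 and 2, the arrays farthest from the median of Fos, r was -0.46 (permutation p = 0.0688), so its size rests in part on those arrays. The same relation was -0.63 on the 15 arrays without 3′ bias, -0.81 in the 9 Wt arrays and -0.64 on deviations from the mean of each first number.

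Fosl1 and the second Jun probe set were correlated (r = 0.60, permutation p = 0.00754, adjusted 0.0352; rho = 0.69, permutation p = 0.00195, adjusted 0.0146). Without the 2 arrays farthest from the Fosl1 median, r was 0.62 (permutation p = 0.0119), and on deviations within first numbers it was 0.84. Fos and Jund correlated at r = 0.63 (permutation p = 0.00564, adjusted 0.0352; rho = 0.59, permutation p = 0.0108, adjusted 0.0403), at 0.92 in the 9 Wt arrays, and at 0.48 (permutation p = 0.0502) without Wt replicates 1 and 2. This relation too depends on those arrays. Junb and Jund gave r = 0.58 (permutation p = 0.0117, adjusted 0.0352; rho = 0.66, permutation p = 0.00421, adjusted 0.021) and 0.71 without the 2 arrays farthest from the Junb median. Their r was 0.56 on the 15 arrays without 3′ bias and 0.39 in the 9 Wt arrays.

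The fifth pair was Jun and Junb. It was counted on all 18 arrays. The first Jun probe set splits these into 3′-biased and other arrays, so its r with family probe sets is given over the 15 others only. There it followed Junb at r = 0.68 and its own second probe set at r = 0.40. The points share 1 platform and 1 normalization, and every array shares its first title number with at least 1 other. The permutations ignored groups and title numbers, so their p-values treat the arrays as independent. Yet deviations from group means correlated at 0.52, 0.41 and 0.58 between Ts16 arrays and Wt arrays of the same replicate number. These arrays were thus not shown to be independent, and the permutation p-values may be too small.

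**Figure D4:**
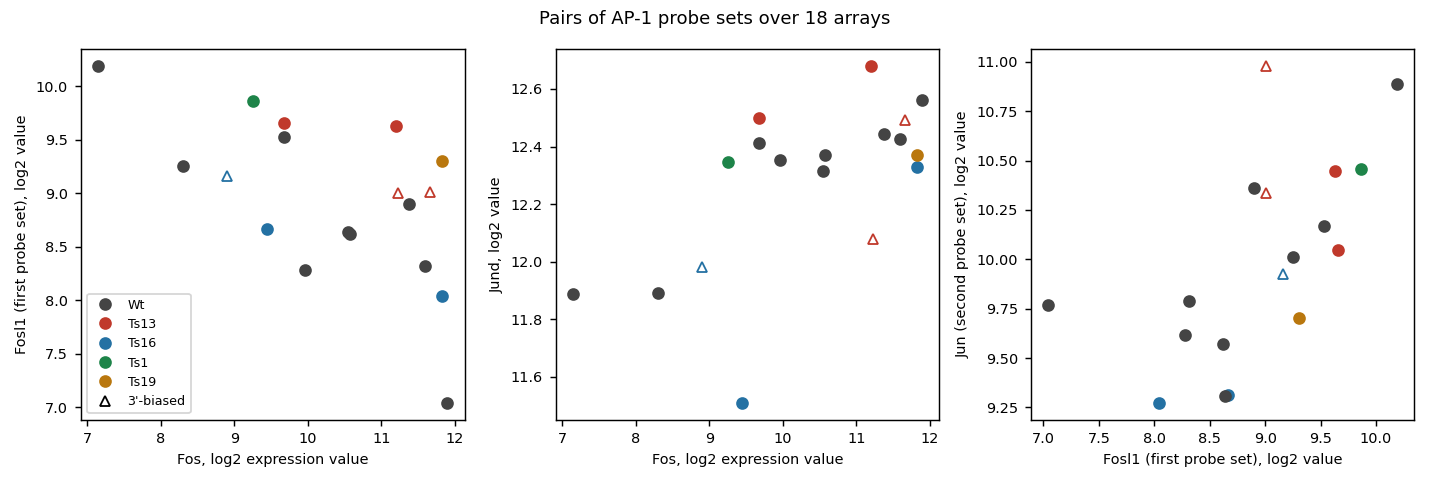
Log2 values of Fosl1 against Fos, Jund against Fos, and the second Jun probe set against Fosl1 on the 18 arrays, coloured by group, with open triangles for the 3′-biased arrays. Fosl1 falls as Fos rises (r = -0.59), Jund rises with Fos (r = 0.63) and the second Jun probe set rises with Fosl1 (r = 0.60).

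The genes with the most similar profiles to each family member were ranked by Pearson's r over the tested genes. On the 15 arrays without 3′ bias these were Arsa (0.91), Ssbp3 (0.91) and Ifitm3 (0.90) for Fos, and Pvr (0.92), Bdnf (0.87) and Ank (0.85) for Fosl1. For Jun they were Acbd3 (0.89), Pfdn2 (0.88) and Rhoc (0.86), for Junb Aup1 (0.94), Usp5 (0.93) and Gramd1a (0.93), and for Jund Chkb (0.96), Bckdha (0.95) and Mcoln1 (0.95). No gene was among the top 3 of 2 family members. On all 18 arrays the leading genes were others: Thra (0.88), Tm7sf2 (0.87) and Il6st (0.85) for Fos, Slc20a1 (0.81), Msn (0.80) and Pde4dip (0.80) for Fosl1, and Apeh, Pacs2 and Psap (each 0.96) for Jun. Junb then followed Cnot3 (0.91), Mettl1 (0.91) and Tmem259 (0.90), and Jund followed Washc1 (0.92), Ypel3 (0.91) and Gadd45a (0.90). The 18-array matches include the 3′-biased arrays, whose mean differed from that of the others by -2.55 for Jun and -1.88 for Junb. The part of RNA quality in these matches was not tested.

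The wider AP-1 system was described with 5 further gene lists. Some genes, such as Creb1, Srf and Dusp1, are in more than 1 of them. Centring the arrays on their medians moved the median of all genes to 0.33 in Ts13, 0.14 in Ts16 and 0.16 in Ts13 against Ts16, so list medians are also given relative to all genes. None of the bZIP partner genes, such as the Atf, Maf and Creb factors that dimerize with or compete with AP-1, was called in any comparison (13 of 21 tested). Their median difference was 0.16 in Ts13 and -0.39 in Ts16, beside 0.01 and -0.05 for all genes. The lowest p-values among them were those of Mafk in Ts13 (0.78 ± 0.32, adjusted p = 0.177) and Atf3, a stress-induced repressor, in Ts16 (-1.74 ± 0.68, adjusted p = 0.591). At an unadjusted p under 0.05 there were 2 of the 13 in Ts13 (15.4%, beside 21.9% of all genes) and 1 in Ts16 (7.69%, beside 6.99%). Atf5 read -3.42 ± 1.48 in Ts13 (adjusted p = 0.197) and 0.40 without the 3′-biased arrays. Atf6, a stress sensor of the endoplasmic reticulum on chromosome 1, was 1.37 ± 0.64 above Wt in Ts1 (adjusted p = 0.784).

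Of the kinases and phosphatases that set AP-1 activity, 19 of 31 were tested and none was called. An unadjusted p under 0.05 was found for 3 of the 19 in Ts13 and 3 in Ts16 (15.8% each, beside 21.9% and 6.99% of all genes). The lowest p-values in Ts13 were those of MAP kinase phosphatases: Dusp10, which acts on JNK and p38, was 1.497 ± 0.41 above Wt (adjusted p = 0.0737) and Dusp1 was 0.90 ± 0.29 above (adjusted p = 0.107). The 4 Ts13 arrays read 7.63 to 8.73 for Dusp10, above the 9 Wt arrays at 5.26 to 7.49; 1.77% of tested genes were above all Wt arrays in this way. Without the 3′-biased arrays these differences were 1.17 (adjusted p = 0.422) and 0.67 (adjusted p = 0.594).

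Among 12 tested factors that drive transcription of Fos and Jun (such as Srf, Elk3, Mef2a and Creb1), 10 were above Wt in Ts13 and 1 in Ts16, against 51.16% and 44.19% of all genes. With the first title number as a block these counts were 9 and 5, and the Ts16 median was -0.02, as for all genes. Without the block, 8 of the 12 were above Wt in Ts1 and 9 in Ts19. Mef2a, a MADS box factor, passed the test for Ts13 against Ts16 (0.97 ± 0.25, adjusted p = 0.048), with 11.25 to 11.95 in Ts13 and 10.30 to 10.80 in Ts16. That call was lost without the 3′-biased arrays (0.82, adjusted p = 0.205) and in 11 of the 16 fits without 1 array, up to an adjusted p of 0.214 without Ts16 replicate 2; against Wt the gene was 0.74 ± 0.19 in Ts13 (adjusted p = 0.0626). Mef2c, which lies on chromosome 13, was 1.65 ± 0.75 above Wt in Ts13 (adjusted p = 0.212), and 0.56 with that block. In Ts1 the lowest p was that of Sp1, at -1.96 ± 0.63 (adjusted p = 0.536); against the Wt array of its own first number it was -0.27.

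Of the AP-1 target genes, 17 of 21 were above Wt in Ts13 (median 0.41) and 7 of 21 in Ts16 (median -0.20), beside medians of 0.01 and -0.05 for all genes. The Ts1 array had 18 of 21 above Wt (median 0.42, beside 0.05 for all genes). For the Ts19 array it was 16 of 21 (median 0.40, beside -0.08), so the rise was not particular to Ts13. No target was called against Wt, and 4 of 21 in Ts13 and 4 in Ts16 had an unadjusted p under 0.05 (19.0% each, beside 21.9% and 6.99% of all genes). Lif, a cytokine gene of stem cells and inflammation, passed for Ts13 against Ts16, at 3.19 ± 0.81 (adjusted p = 0.0475), with 7.32 to 8.44 in Ts13 and 4.10 to 5.82 in Ts16. Without the 3′-biased arrays it was 3.39 (adjusted p = 0.154), and 10 of the 16 fits without 1 array also ended the call, up to an adjusted p of 0.179 without Ts16 replicate 2 (3.01). The growth factor gene Ereg was 1.54 ± 0.67 above Wt in Ts13 (adjusted p = 0.199), and Hmox1, the heme oxygenase of oxidative stress, was -2.68 ± 1.06 in Ts16 (adjusted p = 0.607). In Ts19 the lowest p-values were those of Ccl2, a chemokine gene (1.46 ± 0.58), and Ezr (1.19 ± 0.55), both with an adjusted p of 1; in Ts1 it was Sphk1 at 2.04 ± 0.78 (adjusted p = 0.635).

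Other immediate early genes answer the same signals as Fos. Of these, 17 of 23 were above Wt in Ts13 (median 0.28), 3 of 23 in Ts16 (median -0.54), and 20 of 23 were higher in Ts13 than in Ts16 (median 0.76, beside 0.03 for all genes). On 1 array each, 15 of 23 were above Wt in Ts1 (median 0.08) and 19 of 23 in Ts19 (median 0.26). Klf6, a zinc finger factor on chromosome 13 and so in 3 copies in Ts13, rose there by 0.95 ± 0.20 (adjusted p = 0.0212), with 12.12 to 13.11 against 11.37 to 12.31 in Wt. It was also 1.29 ± 0.25 higher in Ts13 than in Ts16 (adjusted p = 0.0145). Ier3, a survival gene on chromosome 17, was 1.47 ± 0.30 higher in Ts13 than in Ts16 (adjusted p = 0.0192), with 12.05 to 12.49 against 10.73 to 10.76. Without the 3′-biased arrays neither was called: Klf6 was 0.73 (adjusted p = 0.353) against Wt and 1.16 (0.107) against Ts16, and Ier3 was 1.63 (0.0889). Without Ts16 replicate 2 alone the Ts13 against Ts16 calls of both were lost too (1.36, adjusted p = 0.0581, and 1.46, adjusted p = 0.0866), as was the Ts13 call of Klf6 without Ts13 replicate 3 (0.85, adjusted p = 0.104) or 4 (0.91, adjusted p = 0.111). In Ts1, Ier5 on chromosome 1 was 0.84 ± 0.27 above Wt (adjusted p = 0.536). In Ts19, Klf4 was 1.13 ± 0.37 above Wt and Nr4a1, an orphan nuclear receptor, 1.65 ± 0.64 above, with adjusted p-values of 1. With the first title number as a block (7 residual degrees of freedom, against 13) the Ts13 call of Klf6 was lost as well (0.79, adjusted p = 0.189). So were the Ts13 minus Ts16 calls of Lif, at 1.17 (adjusted p = 0.971), Mef2a, at 0.46 (0.946), Klf6, at 0.83 (0.652), and Ier3, at 1.17 (0.304). Without that block, the comparisons of Ts13 and of Ts16 with Wt use the same Wt arrays.

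Relative to the median of all genes, the immediate early genes stood at 0.27 in Ts13 and -0.49 in Ts16, the AP-1 targets at 0.40 and -0.15, and the 5 tested family genes at 0.13 and -0.30. In the same order the Ts1 array gave 0.03, 0.37 and -0.0027. The Ts19 array gave 0.34, 0.48 and 0.63. Centring shifts all genes of a comparison alike and leaves these relative values as they are. It put Fos and Fosl1 above 0 in Ts16 and turned the kinase list there from -0.06 to 0.13, while 0 of the 5 family genes lay above the median of all genes before and after it. Leaving out the 3′-biased arrays leaves 2 arrays in Ts13 and 2 in Ts16. All 5 family genes were then above Wt in Ts13 (median 0.68, beside 0.0041 for all genes), as were 3744 of the 7382 tested genes. In Ts16 only 1 of 5, Fos, was above (median -0.21), beside 2681 of the 7382. No family gene was called. With the first title number as a block and all 18 arrays, the family genes above Wt in Ts13 went from 3 of 5 (median 0.14) to 1 of 5 (median -0.19), and in Ts16 from 0 of 5 (median -0.36) to 1 of 5 (median -0.54). With that block the immediate early genes above Wt in Ts13 went from 17 to 13 of 23 (median 0.15). For Ts13 above Ts16 the family genes went from 5 to 2 of 5 (median from 0.70 to -0.29), the immediate early genes from 20 to 17 of 23 (median 0.42), the AP-1 targets from 17 to 13 of 21 (median 0.48) and the driving factors from 11 to 7 of 12 (median 0.27).

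**Figure D5:**
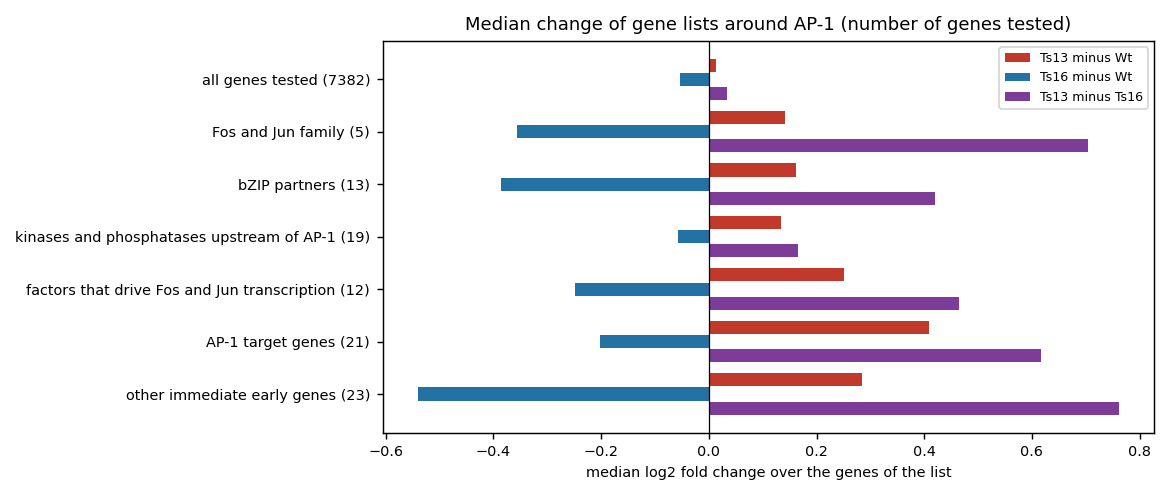
Median log2 fold change of the Fos and Jun family, of 5 related gene lists and of all 7382 tested genes (vertical axis, number of genes tested in brackets) in Ts13 minus Wt, Ts16 minus Wt and Ts13 minus Ts16. All 6 lists lie above 0 in Ts13 minus Wt and below 0 in Ts16 minus Wt, where all genes lie at 0.01 and -0.05. The kinase list in Ts16, at -0.06, is near that of all genes. Medians are 0.14 and -0.36 for the family and 0.28 and -0.54 for the other immediate early genes. Ts1 and Ts19 are not drawn.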

How the data were processed

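The deposited values are log2 expression, 1 per probe set and array. Per the submitters' processing notes the authors used GCRMA and affy; their versions and settings were not given.

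Of 22690 probe sets, 20393 had 1 gene symbol in the platform table, 691 several and 1606 none. The probe set with the highest mean stood for a gene. Genes with a mean of at least 4 were tested with limma 3.58.1 (lmFit, eBayes with trend; R 4.3.3) in 1 fit of 18 arrays in 5 groups, with Benjamini-Hochberg adjustment over 7382 genes and a threshold of 0.05. The number of arrays limits the precision. The procedure was tested on simulated data. Correlations used 100000 permutations (scipy 1.17.1, Python 3.11.15).

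The Gapdh limit for a 3′-biased array was 3. Replicate numbers pair Ts16 with Wt replicates 1 to 3: deviations from group means correlated at 0.52, 0.41 and 0.58. For Ts13 they ran from -0.26 to -0.03.

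All 7 genes were named with every probe set. Of each other list, up to 3 called genes per direction were eligible, or the 2 with the lowest p where none was called; profile matches were the 3 highest r. Not all eligible genes are printed. The family and the lists were chosen with earlier results of these data known.

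Alternatives were other filters, probe set summaries, scalings and blocks, the Gapdh difference as a covariate, a fit without the trend, fits without the 3′-biased arrays, and leaving out each array. Promoter windows and positions came from RefSeq (GRCm38.p6).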

Additional observations from a re-analysis of the deposited data

Results flagged for a closer look

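Outlying arrays were looked for in 18 groups of family values, of which chance gives about 1 in 20; 3 were found. Fosb read 2.57 in Ts13 replicate 2, apart from the other 3 Ts13 arrays and below the filter. Fosl2 read 2.67 in Wt replicate 3, also below the filter. Junb read 4.92 in Wt replicate 9, where the other Wt arrays were at 6.95 or above; Ts1 shares its first title number, so the Junb difference of 2.51 in Ts1 rests on that array.

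A called difference between Ts13 and Ts16 was found for 4 genes, and a pattern that passed no test for Fosl1. Fosl1 was above the mean of the Wt arrays of its number in all Ts13 arrays and below that mean in all Ts16 arrays. The means differed by 1.62 (neighbouring-number block, limma adjusted p = 0.365). The widest Ts13 differences rest on number 780, whose Wt replicate 5 read the lowest Fosl1 value of all arrays. In Ts13 against Ts16, Mef2a differed by 0.97, Lif by 3.19, Klf6 by 1.29 and Ier3 by 1.47 (limma adjusted p = 0.048, 0.0475, 0.0145 and 0.0192). Without the 3′-biased arrays the differences were 0.82, 3.39, 1.16 and 1.63, with fewer arrays and no call (adjusted p = 0.205, 0.154, 0.107 and 0.0889). Klf6 lies on chromosome 13.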

How the results depend on the processing

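No family gene was called in any comparison under any of 32 settings, the reported one included (33 for Ts16). The lowest adjusted p was 0.0729, for Fos in Ts13 with the replicate number as a block. Of the family's fold changes under alternatives that keep all replicates or drop the 3′-biased arrays, 395 kept their sign and 60 did not; leaving out 1 array turned 13 of 480. The causes were not tested.

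With the first title number as a replicate block, genes called were 6 for Ts13 (130 as reported), 0 for Ts16 (3), 0 for Ts1 (3), 0 for all trisomies (4) and 1 for Ts13 against Ts16 (179). Turned signs were Fos -0.19 and Jund -0.024 in Ts13, Fos 1.39 in Ts16, Junb 2.51 and Jund -0.0053 in Ts1, Jund -0.0002 in Ts19, and Fos -1.58, Jun -0.29 and Junb -0.46 in Ts13 against Ts16. The neighbouring-number block, added after the data were seen, gave the same turned values and called 130 genes for Ts13 and 0 for Ts16, Ts1, all trisomies and Ts13 against Ts16. It correlated at 0.36, 0.16, 0.05 and -0.10 in Ts13, so those arrays were not shown to pair. The added pairing of Ts16 with Wt replicates 1 to 3 alone called 0 genes and gave Fos 1.39. The first number as a random block (correlation within numbers -0.05) called 273 for Ts13 against Ts16.

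With the replicate number as a block, 9 genes were called for Ts13 and 0 for Ts16, Ts1, all trisomies and Ts13 against Ts16. Turned were Fosl1 -0.076 in Ts13, Fos 1.31 in Ts16, Fos 1.79, Fosl1 -0.10 and Junb 0.10 in Ts1, Fosl1 -0.66 in Ts19, and Fosl1 -0.39 and Jund 0.13 in all trisomies.

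With the Gapdh difference as a covariate, 46 genes were called for Ts13, 14 for Ts16, 12 for Ts1 and 425 for Ts13 against Ts16. Turned were Jun 0.39 and Junb 0.86 in Ts13, and Jun 0.19, Junb 0.37 and Tgfb1 0.38 in all trisomies. Without the 3′-biased arrays, 14 genes were called for Ts13, 0 for Ts16, 5 for Ts1, 2 for all trisomies and 27 for Ts13 against Ts16. Turned were Jun 0.68, Junb 0.99 and Atf5 0.40 in Ts13, Fos 0.51 in Ts16, Jun 0.26, Junb 0.35, Atf5 0.17, Mrtfa 0.13 and Tgfb1 0.66 in all trisomies, and Fos -0.19 in Ts13 against Ts16. Adding the first-number block to that (chosen after the data were seen) gave 3, 0, 1, 0 and 1 genes called for Ts13, Ts16, Ts1, all trisomies and Ts13 against Ts16. Turned were Fos -0.31, Jun 0.36 and Junb 0.30 in Ts13, Fos 2.19, Junb 0.43 and Map3k4 0.065 in Ts16, Junb 2.51 and Jund -0.0053 in Ts1, Jund -0.0002 in Ts19, Jun 0.31, Junb 0.67, Jund 0.035, Atf5 0.28, Mrtfa 0.27 and Tgfb1 0.78 in all trisomies, and Fos -2.50 and Junb -0.13 in Ts13 against Ts16.

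Centring arrays on the median called 0 genes for Ts16, 1 for Ts1, 7 for all trisomies and 77 for Ts13 against Ts16. It turned Junb to 0.12 in Ts13, Fos to 0.13 and Fosl1 to 0.061 in Ts16, Jund to -0.014 in Ts1 and Jund to 0.16 in all trisomies. It also ended the Ts13 against Ts16 calls of Mef2a and Lif. Quantile normalization ended that of Lif, called 5 for Ts16 and 1 for Ts1 and turned Junb to 0.061 in Ts13. With no filter, 8, 45, 40 and 24 genes were called for Ts16, Ts1, Ts19 and all trisomies, with more genes tested. For Ts1, a filter at 6 called 1, the mean of all probe sets 1 and the fit without the trend 6. The mean of all probe sets turned Jun to -0.083 in Ts19 and Ier5 to -0.23 in Ts1. The second Jun probe set gave Jun 0.51 in Ts13, -0.24 in Ts19 and 0.11 in all trisomies.

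Leaving out 1 array at a time gave 26 to 734 genes called for Ts13, 0 to 8 for Ts16, 3 to 14 for Ts1, 0 to 7 for all trisomies and 26 to 352 for Ts13 against Ts16. The extremes came without Ts13 replicates 4 (26) and 2 (734) for Ts13, and without Ts16 replicates 2 (26) and 1 (352) for Ts13 against Ts16. Ranges that crossed 0 were -0.69 to 0.54 for Junb in Ts13, -0.95 to 0.51 for Fos and -0.40 to 0.16 for Fosl1 in Ts16, -0.095 to 0.051 for Jund in all trisomies, and -0.64 to 0.86 for Jun and -0.064 to 1.62 for Junb in Ts13 against Ts16.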
